A study of Danio rerio with 96 samples.

Results

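The amplicon described here lies on chromosome 2 of the zebrafish genome, positions 14499688 to 14499886 (199 bp, build GRCz10 per the submitters' processing notes), and was read on the minus strand. Its members are the CpGs read 30 or more times in at least 48 of 96 libraries. Of the 10 CpGs that met this rule, the one 9 bp from the first covered cytosine was left out as a likely primer base, which leaves 9 of the 50 CpGs covered in all 8 amplicons of the study. No gene name is given for these coordinates, since an annotation of this build was not used here. Each of the 9 CpGs had at least 30 reads in 90 libraries, and at the CpG left out only 11 of 112141 reads were called methylated.

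Each library holds DNA of the dissected head of a larva aged 5 days. The 4 groups of 24 libraries were wild-type or GR mutant (GR, glucocorticoid receptor), and received either 0.2% ethanol, the control, or betamethasone at 100 µM. The labels name neither the mutant allele nor the length of the exposure. After bisulfite conversion, 100 pg of DNA went into a first PCR of 40 cycles. Of the 96 libraries, 90 had at least 30 reads at all 9 CpGs: 23 wild-type control, 21 wild-type betamethasone, 23 GR mutant control and 23 GR mutant betamethasone. Depth at the amplicon was uneven between groups, with a median per CpG of 1167 reads (34 to 7998) for wild-type control, 419 (80 to 2135) for wild-type betamethasone, 425 (30 to 4396) for GR mutant control and 641 (38 to 4800) for GR mutant betamethasone larvae.

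In vertebrates, DNA methylation sits mainly on the cytosine of CpG dinucleotides, where DNA methyltransferases place it and copy it to the new strand after replication. Most CpGs of the zebrafish genome are methylated, apart from those in active promoters and enhancers. GR is the nuclear receptor for cortisol, and betamethasone is a synthetic glucocorticoid that binds it. Bisulfite turns unmethylated cytosines into uracil, so a read shows T where a cytosine was unmethylated and C where it was methylated. A level below is the share of reads called methylated at a position.

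The 9 CpGs formed a mostly methylated stretch with a lower end. Over the 90 larvae, the level was 78.2% ± 19.2 (SD) at 14499712, the CpG nearest the start, and 85.5% ± 17.9 at 14499727. It then reached 93.3% ± 12.5 at 14499749 and 93.9% ± 13.4 at 14499783. The highest level was 99.5% ± 1.94 at 14499788, the CpG at the centre of the 9. After a dip to 90.3% ± 16.9 at 14499800, the last 3 CpGs had 96.7% ± 11.6 (14499815), 94.2% ± 14.5 (14499820) and 95.0% ± 13.0 (14499826).

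The means were pulled down by a minority of larvae, and the medians were higher. The median was 84.1% at 14499712 and 91.8% at 14499727, and lay between 96.9% and 100% at the other 7 CpGs. At 14499788 the level was at least 90% in 89 of 90 larvae and never below 84.9%. At the other 8 CpGs the lowest larva was between 19.1% and 38.1% while the highest was at 99.1% or more. Position 14499712 lies 24 bp from the first covered cytosine, within the length of a primer, but its level ran from 19.1% to 99.1%.

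**Figure D1:**
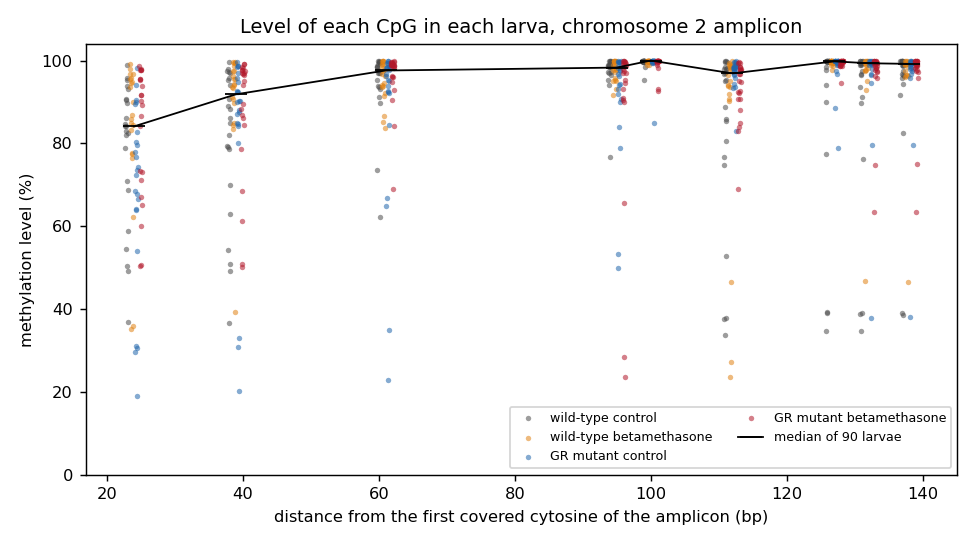
Methylation level in percent (y axis) of each of the 9 CpGs against its distance in bp from the first covered cytosine of the amplicon (x axis). Each point is 1 larva, coloured by group, and the black line joins the medians of 90 larvae, which rise from 84.1% at the first CpG to 91.8% at the second and stay at 96.9% or more at the other 7, with single larvae far below at every CpG but the fifth.

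Within larvae, 6 of the 8 steps between neighbouring CpGs passed a sign-flip permutation test (two-sided, Benjamini-Hochberg over the 8 steps, n = 90). From 14499712 to 14499727, 15 bp apart, the level rose by 7.30 percentage points (SE 1.30, higher in 83 larvae), and over the next 22 bp to 14499749 by 7.75 (SE 1.76, higher in 78). From 14499783 to 14499788, only 5 bp apart, it rose by 5.59 (SE 1.32, higher in 81), and from there to 14499800 it was lower by -9.18 (SE 1.78, lower in 86). The step up to 14499815 was 6.41 (SE 1.46, higher in 84). These 5 steps had an adjusted permutation p of 1.6e-05, the smallest this test can give after adjustment here. The step down to 14499820 was -2.53 (SE 1.07, adjusted permutation p = 0.0112, lower in 72).

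The remaining steps did not pass. Positions 14499749 and 14499783 differed by 0.620 points (SE 1.88, adjusted permutation p = 0.745), and 14499820 and 14499826 by 0.873 (SE 0.742, adjusted permutation p = 0.331). Within single groups, the first of these 2 steps passed in both wild-type groups (2.98 in control and 2.49 in betamethasone larvae) and was -6.58 in GR mutant betamethasone larvae, which did not pass. The amplicon was less methylated than the chromosome 6 amplicon, 1 of the 2 nearest to it in level, at 27961540 to 27961753 by -4.30 points (SE 0.781, lower in 61 of 74 larvae). It was more methylated than the other, the chromosome 8 amplicon at 22488700 to 22488907 by 15.0 points (SE 1.42, higher in 65 of 71). Both sign-flip permutation tests gave an adjusted p of 1e-05, the smallest they can give.

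Some larvae were far below the others at 1 or a few CpGs. A CpG was counted as low where it stood 30 or more percentage points below its median over all larvae. This held for 54 of 810 values (6.67%), in 29 of 90 larvae (32.2%). The smallest loss counted was 30.1 points and the largest one not counted was 29.5, and 8 further larvae had a CpG 20 to 30 points low. By this limit 1 CpG was low in 16 of the 29 larvae, and 2 or more in 13. The limit follows each CpG's own median, so some of the 16 had a further CpG at a similar level that was not counted: 14499712 was at 54.6% beside 14499727 at 54.3% in wild-type control 17, and GR mutant betamethasone 1 had 5 CpGs at 65.5% to 68.9%, of which 1 was counted. By position, 12 larvae were low at 14499712, 11 at 14499727, 5 at 14499749, 5 at 14499783, 7 at 14499800, 3 at 14499815, 6 at 14499820, 5 at 14499826 and 0 at 14499788. In contrast, 36 larvae had every CpG at 80% or more and 19 had every CpG at 90% or more.

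**Figure D2:**
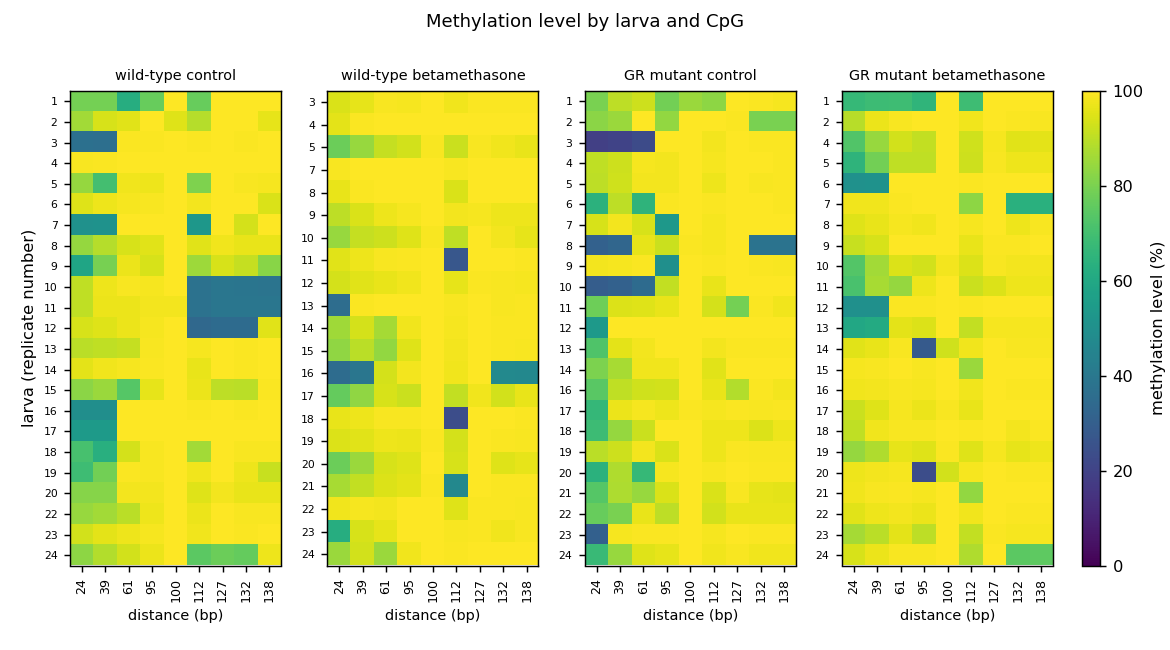
Methylation level in percent (colour scale) of the 9 CpGs (columns, labelled by distance in bp from the first covered cytosine) in each of 90 larvae (rows, by replicate number) of the 4 groups (panels). Most cells are yellow, near 100%, and the dark cells are the losses, which in larvae with several low CpGs form blocks of nearly equal level, such as 37.8% to 39.2% at the last 4 CpGs of wild-type control 10.

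The 10 larvae with the largest losses show the kinds of pattern. GR mutant control 3 had 14499712, 14499727 and 14499749 at 19.1% to 22.8%, while its other 6 CpGs were at 98.3% or more. GR mutant control 10 was low at the same 3 CpGs, at 29.6% to 34.9%. In these 2 larvae the low CpGs were the 3 nearest the start, and the rest of the amplicon stayed above 90%.

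A further set was low at the other end. Wild-type control 10 had 14499800, 14499815, 14499820 and 14499826 at 37.8% to 39.2%, with 2117 reads at 14499815. Wild-type control 11 had the same 4 CpGs at 37.5% to 39.1%, with 64 reads. Wild-type control 12 had 14499800, 14499815 and 14499820 at 33.8% to 34.8%, whereas its 14499826 was not low. These 3 libraries carry neighbouring replicate numbers of 1 group.

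The other 5 of these larvae were low at 1 CpG or at both ends. GR mutant betamethasone 20 was at 23.7% at 14499783 (95% Wilson interval 21.9 to 25.5, 2198 reads) and GR mutant betamethasone 14 at 28.4% (25.6 to 31.4, 908 reads), while their other CpGs were at 92.6% or more. Wild-type betamethasone 18 was at 23.7% at 14499800 (19.7 to 28.1, 393 reads) and wild-type betamethasone 11 at 27.2% (21.8 to 33.3, 228 reads). GR mutant control 8 was low at 14499712, 14499727, 14499820 and 14499826, at 31.0% to 38.1%, with the 5 CpGs between at 92.0% or more. The low CpGs of these larvae stood beside neighbours close to full methylation. The intervals cover counting error only, since PCR reads without molecular identifiers are not independent molecules.

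Where several CpGs of a larva were low, they were low to about the same degree. Among the 13 larvae with 2 or more low CpGs, the low levels of a larva spanned a median of 1.37 points, and under 5 points in 10. In 10 of the 13 the low CpGs were next to each other. The 3 exceptions were GR mutant control 8, wild-type betamethasone 16 and wild-type control 7. Across larvae, the levels of some neighbouring CpGs rose and fell together. Pearson r was 0.875 for 14499820 and 14499826, 0.780 for 14499712 and 14499727 and 0.722 for 14499815 and 14499820 (n = 90). It was 0.580 for 14499800 and 14499815, 0.492 for 14499783 and 14499788 and 0.443 for 14499727 and 14499749. For 14499749 and 14499783 it was only 0.0506, and for 14499788 and 14499800 it was 0.0227. These coefficients are descriptive, because the CpGs of a larva share a library and a few low larvae carry much of the spread.

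Some patterns recurred in other libraries, and the following were picked out after their values were seen. GR mutant betamethasone 6 and 12 both had 14499712 and 14499727 at nearly equal shares of methylated and unmethylated reads, at 50.6% and 51.0% in the first and 50.3% and 50.2% in the second. Wild-type control 16 had 49.3% at both positions, and its CpG profile matched those 2 GR mutant profiles within sampling noise (chi-square per CpG 0.772 and 0.533). Non-CpG calls separated these libraries: 14499729 was at 46.2% and 44.0% in the GR mutant larvae and at 0.318% in the wild-type larva.

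Other libraries low at similar CpGs had non-CpG calls in common, though not all of these pairs matched within sampling noise. Wild-type betamethasone 16 was low at the same 4 CpGs as GR mutant control 8, at 35.3% to 46.9%, and 14499763 was at 52.8% and 62.0% in them. The chi-square per CpG of this pair was 3.81, and single CpGs differed by up to 8.98 points. Wild-type betamethasone 11 and 18, both low at 14499800, had 14499780 at 72.4% and 76.6%. Wild-type control 10 and 11 shared a lower call, at 14499751, of 6.05% and 6.25%. Wild-type control 16 and 17, with 14499712 at 49.3% and 54.6%, had 14499724 at 6.35% and 8.38%. GR mutant betamethasone 14 and 20 had 14499729 at 8.37% and 7.60%. Wild-type betamethasone 13 and GR mutant control 23, both low at 14499712, had 14499822 at 3.10% and 2.42%. Whether such libraries held the same amplification products or DNA was not tested, and each was counted as a separate larva with a loss.

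Under a looser limit, a chi-square below 4 per CpG, 49 of 724 pairs of 1 group (6.77%) and 113 of 2279 pairs of different groups (4.96%) had similar profiles among libraries with at least 100 reads at every CpG. This limit is wider than sampling noise, as single CpGs of such a pair differed by up to 23.5 points. In 8 of these pairs both libraries had a loss.

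At the non-CpG cytosines of the amplicon, which bisulfite should convert, most values were close to 0, but single positions were very high in some larvae. Over its 35 non-CpG cytosines (9 CHG and 26 CHH, where H is any base but G), 2909 of 3149 values (92.4%) were below 1%. However, 43 values in 38 larvae reached 10% or more, at 14 of the 35 cytosines, and 33 of these larvae had 1 such cytosine. The highest were 88.4% at 14499822 in wild-type betamethasone 22 (1019 reads) and 77.2% at 14499757 in wild-type betamethasone 4 (443 reads).

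Several positions were high in more than 1 larva, some across groups and some in 1 group only. Position 14499780, a CHG cytosine, reached 10% in 9 larvae, 6 wild-type betamethasone and 3 wild-type control. Positions 14499714 and 14499763 each did so in 3 GR mutant control and 1 wild-type betamethasone larvae, and 14499817 in 4 larvae of 3 groups. Position 14499769 was high in 4 larvae, from 19.7% to 75.2%, all GR mutant betamethasone. Also in 1 group were 14499729 (3 GR mutant betamethasone larvae), 14499796 (3 wild-type betamethasone) and 14499822 (2 wild-type betamethasone). How the positions fell among groups was not tested. The 10 non-CpG cytosines in the first 24 bp stayed at 2.63% or less in every larva, and the 5 in the last 55 bp at 0.585% or less.

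**Figure D3:**
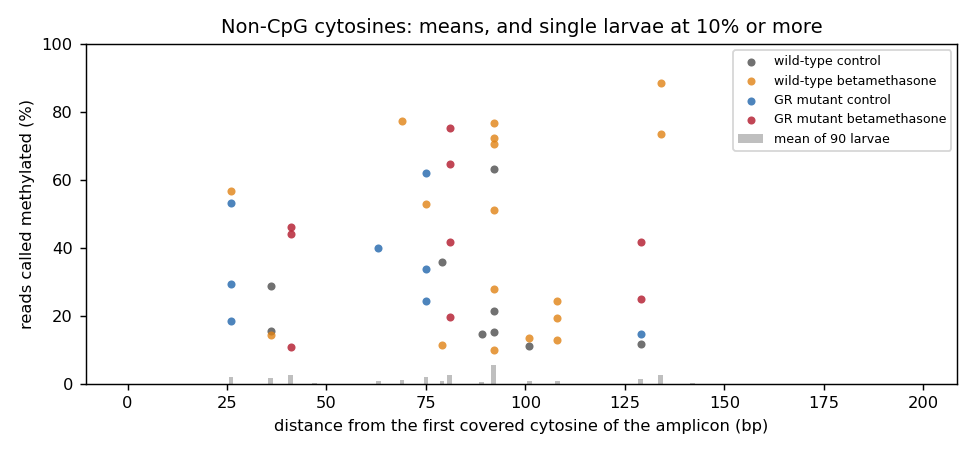
Reads called methylated in percent (y axis) at the non-CpG cytosines, against distance in bp from the first covered cytosine (x axis). Grey bars are means of 90 larvae and each point is 1 larva at 10% or more, coloured by group; the points lie between 26 and 134 bp and reach 88.4%, while no mean exceeds 5.67%.

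A high non-CpG cytosine was present in 10 of the 29 larvae with a loss (34.5%) and in 28 of the 61 without one (45.9%). This difference was not tested, and it rests on the 30-point limit, since some of the 28 had CpGs 20 to 30 points low. In several of the 10 larvae with both, the shares of reads were close. In wild-type betamethasone 18, 76.6% of reads were methylated at 14499780 and 76.3% unmethylated at 14499800, 20 bp away. In wild-type betamethasone 11 these shares were 72.4% and 72.8%, and in wild-type betamethasone 21 they were 51.2% and 53.4%. Wild-type control 12 had 63.3% at 14499780 and 65.2% to 66.2% unmethylated at its 3 low CpGs. The other larvae with 14499780 at 10% or more had no loss. In wild-type betamethasone 8 it was at 70.7% with 14499800 still methylated at 94.2%, and in wild-type betamethasone 9 at 28.0% with 98.1%. These levels were 10.0% and 93.8% in wild-type betamethasone 20, 21.4% and 74.8% in wild-type control 24, and 15.3% and 88.8% in wild-type control 2. Wild-type control 24 was also at 77.4% at 14499815 and 76.3% at 14499820. With 14499800, these are the CpGs low in wild-type control 12.

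At other cytosines the shares were close at some of the low CpGs. GR mutant control 8 had 62.0% methylated at 14499763, against 62.1% and 61.9% unmethylated at 14499820 and 14499826 and 69.0% and 66.9% at its other 2 low CpGs. In wild-type betamethasone 16, 52.8% at 14499763 stood beside 53.1% and 53.5% unmethylated at 14499820 and 14499826, and farther from the 64.7% and 60.7% at 14499712 and 14499727. In GR mutant betamethasone 13 the shares were apart, with 10.7% at 14499729 and 38.7% unmethylated at 14499727 (75 reads). The files hold counts per cytosine, not per read, so whether the calls lay on the same reads was not tested.

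**Figure D4:**
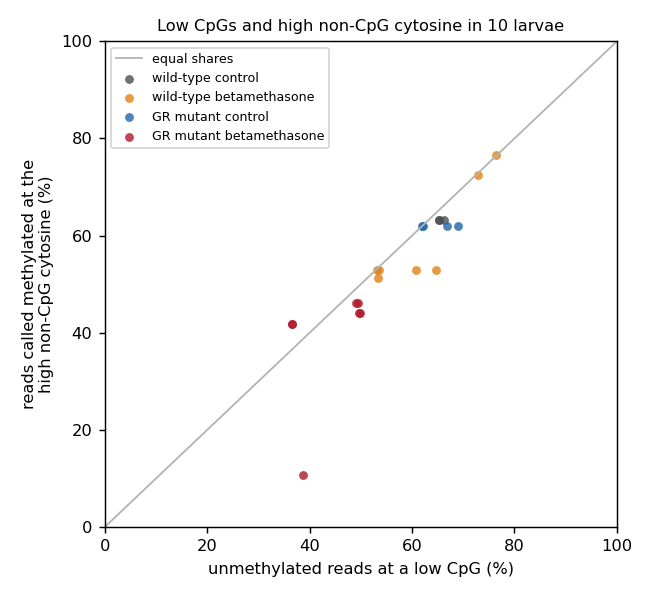
Reads called methylated at the high non-CpG cytosine (y axis, percent) against unmethylated reads at each low CpG (x axis, percent) in the 10 larvae with both. Each point is 1 low CpG of 1 larva, coloured by group, and the line marks equal shares; the points at 72.4% and 76.6% lie almost on the line, and the lowest, at 10.7%, lies farthest from it.

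Losses were found in all 4 groups and their frequency did not differ between them by Fisher's exact test (two-sided, adjusted over 4 pairs of groups). A loss was present in 8 of 23 wild-type control larvae (34.8%), 5 of 21 wild-type betamethasone (23.8%), 9 of 23 GR mutant control (39.1%) and 7 of 23 GR mutant betamethasone larvae (30.4%). All adjusted exact p were 1.00, and the smallest unadjusted exact p, for betamethasone in wild-type larvae, was 0.518. That difference of -11.0 points moved widely with the limits: it was -28.0 when a loss of 20 points was counted (28.6% against 56.5%, exact p = 0.0759, adjusted 0.304). With a minimum of 500 reads it was -46.2 (0 of 8 against 6 of 13, exact p = 0.0456, adjusted 0.102). With similar profiles of a group counted once it was 0 (4 of 10 against 8 of 20). That count merges profiles at a limit wider than sampling noise and left 10 of the 21 betamethasone larvae. It merged only libraries with at least 100 reads at every CpG, so wild-type control 10 and 11 both stayed in, with all 8 control losses. Most libraries it took out had no loss. It therefore cannot show the difference with look-alike losses counted once. Depth moved with the losses: 2 of 12 larvae with a median of 30 to 99 reads (16.7%), 9 of 32 with 100 to 499 (28.1%), 8 of 27 with 500 to 1999 (29.6%) and 10 of 19 with 2000 or more (52.6%) had one. The deepest class held 9 wild-type control and 1 wild-type betamethasone larvae. The part of depth in the group counts was not tested.

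The first group comparison asked whether betamethasone went with a different level in wild-type larvae, and the amplicon did not pass. Over the 9 CpGs, control larvae ran from 70.7% to 99.8% with a median of 90.4%, and betamethasone larvae from 73.1% to 99.7% with a median of 94.3%. The ranges of the groups overlapped almost fully, although 19 of 21 betamethasone larvae lay above the control median. The mean was 89.5% ± 8.15 (SD, n = 23) without and 94.0% ± 5.69 (SD, n = 21) with betamethasone, 4.51 points higher (SE 2.10, adjusted p = 0.124 by beta-binomial likelihood ratio test). Of all 8 amplicons, 37.5% passed in this comparison. A permutation test of equally weighted larvae did not pass either (permutation p = 0.0409, adjusted 0.0818). A quasi-binomial test, which weights larvae by their reads, gave 7.22 (adjusted p = 0.00269) and called 62.5% of the amplicons.

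**Figure D5:**
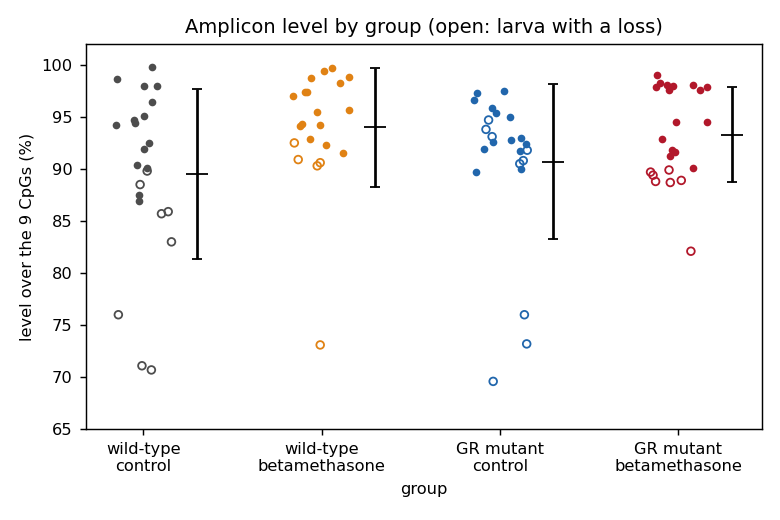
Methylation level in percent over the 9 CpGs (y axis, from 65%) of each larva in the 4 groups (x axis). Points are larvae, open where the larva has at least 1 low CpG, and the bar beside each group is the mean with its SD; the means lie between 89.5% and 94.0%, the groups overlap, and the 7 lowest larvae are all open points.

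By CpG, all 9 were higher on average in betamethasone-treated wild-type larvae and 0 passed the beta-binomial test, while 22.4% of all 49 CpGs tested passed. The median difference was 3.88 points, against -0.0663 over the 49 CpGs. At an unadjusted p below 0.05 there was 1 of the 9, 14499727, against 28.6% of the 49. Position 14499727 ran from 36.6% to 99.6% in control (median 86.1%) and from 39.3% to 99.7% in betamethasone larvae (median 94.4%). The difference was 10.7 points (SE 4.73, adjusted p = 0.115, higher in 17 of 21). The quasi-binomial test called it (27.5, adjusted p = 0.00137) and also 14499712 (21.3, adjusted p = 0.0172), and 40.8% of the 49 CpGs in all. The permutation test called 0 of the 9 and 24.5% of the 49.

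Non-CpG methylation in the wild-type groups, over cytosines more than 30 bp from either end of the amplicon, was higher on average with betamethasone, without passing. It was 1.95% ± 1.58 (SD, n = 23) in wild-type betamethasone and 0.972% ± 1.03 (SD, n = 23) in wild-type control libraries (permutation p = 0.0170, adjusted 0.0680). Over all non-CpG cytosines of the amplicon it was also higher, and that difference passed. A non-CpG cytosine at 10% or more was present in 15 of 21 betamethasone and 7 of 23 control larvae (Fisher's exact p = 0.0148, adjusted 0.0592). Over all amplicons the order was the other way, with 10 wild-type control and 2 wild-type betamethasone libraries above 2% non-CpG methylation. Between genotypes in controls the amplicon's non-CpG level, with its ends left out in the same way, differed by -0.343 points (adjusted permutation p = 0.235). The CpG level of the amplicon differed by 1.13. In GR mutants the non-CpG level was likewise higher with betamethasone, without passing. It was 1.17% ± 1.11 against 0.629% ± 0.908 (SD, n = 24 each, adjusted permutation p = 0.0888). Under betamethasone it was lower in GR mutant than in wild-type libraries by -0.780 points (adjusted permutation p = 0.0888). A non-CpG cytosine at 10% or more was present in 9 of 23 and 15 of 21 of these larvae (Fisher's exact p = 0.0396, adjusted 0.0791). The part of incomplete conversion in the CpG levels was not tested.

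Betamethasone in the mutants likewise gave no call for the amplicon. The level ran from 69.6% to 97.5% in control (median 92.6%) and from 82.1% to 99.0% in betamethasone larvae (median 92.9%). Means were 90.7% ± 7.43 and 93.3% ± 4.54 (SD, n = 23 each), a difference of 2.67 points (SE 1.81, adjusted p = 0.330), and 12 of 23 betamethasone larvae were above the control median. Of all 8 amplicons, 0% passed here, with 1 at an unadjusted p below 0.05 and 1 by the quasi-binomial test.

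Of the 9 CpGs, 0 passed, against 2.04% of the 49. At an unadjusted p below 0.05 there were 2, against 16.3% of the 49. Position 14499712 ran from 19.1% to 98.3% in control (median 73.6%) and from 50.3% to 98.7% in betamethasone larvae (median 90.3%), with means of 68.5% ± 22.0 and 83.2% ± 15.8. The groups overlapped, and the difference of 14.8 points (SE 5.66, adjusted p = 0.0663) had 15 of 23 betamethasone larvae above the control median. The quasi-binomial test called it (21.2, adjusted p = 0.00930) together with 4.08% of the 49 in all. By the permutation test, 0 of the 9 and 0% of the 49 were called. Position 14499800 was lower by -4.08 points in betamethasone larvae (SE 1.70, adjusted p = 0.205), lower in 18 of 23.

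Between genotypes without betamethasone, GR mutant and wild-type controls differed by 1.13 points over the amplicon (SE 2.30, adjusted p = 0.852), with 18 of 23 mutants above the wild-type median; 37.5% of amplicons passed. None of the 9 CpGs was called (0 of 9), while 36.7% of the 49 were. At an unadjusted p below 0.05 there were 0 of the 9 and 42.9% of the 49. The largest difference was at 14499800, which ran from 33.8% to 99.9% in wild-type (median 95.4%) and from 83.1% to 99.9% in mutant controls (median 98.2%). All low values at this CpG were in wild-type larvae, 4 of 23 control and 3 of 21 betamethasone larvae, against 0 of 23 in each mutant group. The difference of 13.2 points (SE 4.62) had an adjusted p of 0.154 by the beta-binomial test and 0.00768 by the permutation test of equally weighted larvae, which called 1 of the 9 CpGs and 32.7% of the 49. The quasi-binomial test called 38.8% of the 49 and 2 of the 9, 14499800 (11.5, adjusted p = 0.0195) and 14499727 (23.5, adjusted p = 0.00174). The 4 low control larvae included the 3 libraries with neighbouring numbers 10, 11 and 12. Non-CpG calls separated 12 from 10 and 11: 14499780 was at 63.3% in 12 and at 0.850% and 1.56% in 10 and 11. Of the low betamethasone larvae, 11 and 18 had matching CpG profiles (chi-square per CpG 0.299). The lowest mutant value at this CpG was 68.9%, in GR mutant betamethasone 1, below the median of 96.9% but not by enough to be counted. Position 14499712 was lower in mutants by -9.92 points (SE 5.84, adjusted p = 0.172), lower in 18 of 23.

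Among betamethasone-treated larvae the genotypes differed by -0.706 points (SE 1.56, adjusted p = 0.643), with 11 of 23 mutants above the wild-type median and 25.0% of amplicons past the threshold. Again 0 of the 9 CpGs were called, against 10.2% of the 49, and 0 without adjustment, against 24.5%. The largest difference was at 14499783, at -8.26 points (SE 4.46, adjusted p = 0.684). There the wild-type larvae ran from 91.8% to 100% and the mutants from 23.7% to 100%, and 3 of 23 mutants were low.

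Whether genotype changed the size of the betamethasone difference was tested by an interaction term. In the beta-binomial and quasi-binomial tests this term was in log odds of methylation. The values given are differences of differences in percentage points, so the p-values of these tests do not test them directly. The amplicon's difference was 4.51 points for wild-type and 2.67 for mutants, an interaction of -1.84 (SE 2.78, n = 90, adjusted p = 0.802); 37.5% of amplicons passed. The interaction called 0 of the 9 (0 also without adjustment) and 14.3% of the 49 (28.6% without adjustment). The interaction was 10.0 points at 14499712 (SE 7.80, adjusted p = 0.428), -6.45 at 14499727 (SE 7.39, adjusted p = 0.512) and -7.50 at 14499800 (SE 7.05, adjusted p = 0.424). The permutation test also called 0 of the 9 for the interaction (20.4% of the 49), as did the quasi-binomial test (24.5% of the 49), and both called 0 of the 9 between the treated groups (10.2% and 26.5% of the 49).

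The spread between larvae was largest in wild-type controls, without a detectable difference. The mean absolute deviation from the group median was 6.02 points for wild-type control, 3.60 for wild-type betamethasone, 4.23 for GR mutant control and 3.87 for GR mutant betamethasone larvae. The largest contrast, between the wild-type groups, had a permutation p of 0.114 (adjusted 0.456).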

How the data were processed

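Per the labels' protocols, a first PCR amplified the targets from bisulfite-converted DNA, a second added barcodes, and read pairs of 150 bp were sequenced. The submitters' processing notes name BS-Seeker2, cutadapt, FastQC and build GRCz10, without versions or read filters. For each library the authors deposited a methylation fraction and the counts of methylated and of all reads at each cytosine. The deposited fraction matched the counts within rounding at every cytosine, and the counts were used. Totals per library ran from 19 to 2009599 cytosine calls (median 1227600.5).

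A level is methylated over all reads, at 30 reads or more; for the amplicon, reads were summed over 9 CpGs. The main test between groups was a likelihood ratio test (two-sided) from beta-binomial regression, each larva being 1 observation, fitted to 49 CpGs or 8 amplicons and adjusted by Benjamini-Hochberg over all of them (threshold 0.05). Fisher's exact and permutation tests (100000 resamples) served the rest. All 9 CpGs are named, and the 10 larvae with the largest losses. The members, lists and loss limit were chosen with earlier results of these data known. Chosen after seeing the data were the 10% limit for non-CpG cytosines, its alternatives, the minimum of 500 reads, and counting matching libraries once for the losses. Each library was counted as 1 larva; the labels give no clutch, plate or batch, so p-values measure the spread between libraries only. The beta-binomial test was also run on simulated larvae drawn independently of each other. That check does not cover look-alike libraries such as those found here. Software was scipy 1.17.1, statsmodels 0.14.6, pandas 2.3.3, numpy 2.4.6 and matplotlib 3.10.9, under Python 3.11.15.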

Additional observations from a re-analysis of the deposited data

How the results depend on the processing

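Of 219 alternative values for the comparisons, 191 counted as unchanged, and for single CpGs 379 of 414 did. For a difference, unchanged meant the same direction and the same side of the threshold. For a number of CpGs past the threshold, it meant a similar number. The 414 also include mean levels of single CpGs, which have no direction or threshold. These counted as unchanged if they moved by less than their SD, and all did. The cause of the changes was not tested. With reads as weights (quasi-binomial), the wild-type betamethasone difference passed (7.22), and 2, 1 and 2 of the 9 CpGs passed for betamethasone in wild-type, betamethasone in GR mutant larvae and genotype in controls. The permutation test called 1 CpG for genotype in controls. Equal replicate numbers correlated above 0.1 in 10 of 20, 7 of 22, 6 of 22 and 8 of 20 pairs. Whether larvae of equal number shared more than the number was not tested. With the replicate block, 1 CpG passed for betamethasone in wild-type larvae (14499727) and 2 for genotype in controls (14499783 and 14499800). The share of CpGs passing with the replicate block over all amplicons was not counted. Whether this amplicon stood out from the others with the block is therefore not known. With this block, the genotype difference under betamethasone turned to 0.0594. It turned to 0.00941 with similar libraries of a group (chi-square below 4 per CpG) counted once. The betamethasone difference in GR mutant larvae turned to -0.314 at a minimum of 500 reads, and the genotype difference in controls to -0.210 without larvae that had a loss.

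Steps between CpGs changed within groups. In wild-type control larvae 14499712 to 14499727 was 2.30 and 14499749 to 14499783 was 2.98. In wild-type betamethasone larvae 14499727 to 14499749 was 3.76, 14499749 to 14499783 was 2.49 and 14499820 to 14499826 was -0.00861. In GR mutant control larvae 14499727 to 14499749 was 4.56, 14499800 to 14499815 was 1.10, 14499815 to 14499820 was -2.64 and 14499820 to 14499826 was -0.0445. In GR mutant betamethasone larvae 14499749 to 14499783 was -6.58.

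The share of larvae with a loss differed between genotypes in controls by -13.0 points at a limit of 20 points, by -4.35 against the own group's median and by -2.63 without libraries above 2% non-CpG methylation. At a limit of 50 points it was 1.66 for betamethasone in wild-type larvae and -10.4 for genotype under betamethasone. The non-CpG difference in wild-type larvae passed over all non-CpG cytosines (0.655), and the share of larvae with a high one passed at a limit of 5% (38.3).

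At single CpGs, 26 differences changed sign. For betamethasone in wild-type larvae these were 14499712 with matching libraries once (-1.97), 14499749 (-0.640), 14499783 (-0.539) and 14499788 (-0.00121) with the block, 14499783 below 2% non-CpG methylation (-0.0525) and 14499788 at 10 reads (-0.0311). In GR mutant larvae they were 14499727 (-5.28), 14499820 (-2.97), 14499826 (-2.66) and 14499788 (0.360) at 500 reads, 14499788 with read weights (0.158) and below 2% (0.0258), and 14499815 without larvae with a high non-CpG cytosine (-0.365). For genotype in controls they were 14499712 (2.16) and 14499826 (-0.451) with read weights and 14499788 without larvae with a high non-CpG cytosine (0.123). For genotype under betamethasone they were 14499749 (-0.430) and 14499820 (1.14) with matching libraries once, 14499800 (-0.483), 14499815 (0.0957) and 14499826 (-0.322) with read weights, 14499820 below 2% (0.344) and 14499826 with the block (-0.148). For the interaction they were 14499712 (-0.0657) and 14499826 (0.129) with read weights and 14499826 at 100 reads (0.00857).

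A minimum of 500 reads, and leaving out larvae with a high non-CpG cytosine, left 8 and 6 wild-type betamethasone larvae, under the 10 set for a test of levels, so levels were not compared with that group. Losses were still counted: at 500 reads the share differed by -46.2 points for betamethasone in wild-type larvae and by 42.9 for genotype under betamethasone (6 of 14 against 0 of 8, exact p = 0.0511, adjusted 0.102). Without high non-CpG larvae it was 1 of 6 against 7 of 16 for betamethasone in wild-type larvae (-27.1, exact p = 0.351). Losses of a few percentage points were not detectable in larvae with few reads.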
